A study of Sus scrofa domesticus with 2 samples.

Results

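Arterial and venous endothelial cells (ECs) can be told apart by a small set of genes, and 10 of them were followed here in ECs cultured from the aorta and from the lung of the domestic pig. The 10 genes were set by name: the connexin genes GJA4 and GJA5, the ephrin gene EFNB2 with its receptor gene EPHB4, the Notch ligand genes DLL4 and JAG1, the Notch receptor genes NOTCH1 and NOTCH4, the Notch target HEY1 and the venous transcription factor gene NR2F2. All 10 were named among the 22804 genes counted, and all 10 had UMIs (unique molecular identifiers, each standing for 1 captured RNA molecule) in both libraries.

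In arteries, ECs carry high Notch signalling: a ligand such as DLL4 or JAG1 on a neighbouring cell triggers cleavage of the receptor, and its inner part joins the DNA-binding protein RBPJ to switch on targets such as HEY1. Arterial ECs also display ephrin-B2, whereas venous ECs display its receptor EphB4, and the nuclear receptor made from NR2F2, also called COUP-TFII, holds the Notch programme down in veins. The connexins 37 (GJA4) and 40 (GJA5) form gap junctions between arterial ECs and are known as markers of arteries.

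Single-cell RNA sequencing had been run on 1 library per vessel bed, labelled Aorta_EC and Lung_EC. Both came from domestic pig tissue digested with collagenase, a stretch of aorta close to the lung and a perfused lung lobe. Both cultures were grown in the same serum-containing medium, and the labels name no treatment. They give no age, sex or number of animals, and there was 1 library per bed, so the spread between animals or cultures cannot be seen and vessel bed and library cannot be told apart. No p-value is therefore given, and every 95% interval below is exact (Poisson for a level, conditional binomial for a ratio of levels, Clopper-Pearson for a share of cells) and covers counting error only.

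Of 955 cells kept in the aorta library, 704 (73.7%) had more PECAM1 UMIs than COL1A1 and COL1A2 UMIs together and were counted as ECs, as were 5305 of 5709 (92.9%) in the lung library. In both libraries, 13 of 13 endothelial marker genes had UMIs in these cells, and their summed level was 2536 CPM (UMIs per 1e+06 UMIs of the group) in the aorta and 2639 CPM in the lung, against 192 and 443 CPM in the cells with more collagen UMIs (collagen cells, 185 in the aorta and 356 in the lung). PECAM1, which was used to choose the cells, made up 1290 and 1592 CPM of the EC sums, against 25.2 and 191 CPM in collagen cells. VWF, a defining endothelial gene, was close to 0 in the ECs of both beds, at 0.195 and 0.399 CPM. KDR was also low, at 0.390 and 1.78 CPM. FLT1 was lower in ECs than in collagen cells (25.4 against 31.8 CPM in the aorta, 21.3 against 45.4 CPM in the lung). All other listed endothelial markers were higher in ECs than in collagen cells of both beds. The 6 fibroblast markers, which include COL1A1 and COL1A2, all had UMIs and summed to 191 CPM in aorta ECs and 31.0 CPM in lung ECs. In collagen cells they summed to 10376 and 11190 CPM. DCN (18.5 against 4.72 CPM), LUM (15.7 against 12.0 CPM) and PDGFRA (7.77 against 4.17 CPM) were higher in aorta ECs than in aorta collagen cells. COL1A1, COL1A2 and COL3A1 were lower in these ECs. The 5 smooth muscle markers, mostly TAGLN, summed to 247 CPM in aorta ECs and 964 CPM in lung ECs. Immune (5.96 and 10.2 CPM) and mural (5.38 and 19.4 CPM) markers were low, and of the lymphatic markers PROX1 had 0 UMIs in aorta ECs and LYVE1 in both. The median aorta EC held 53208.5 UMIs and the median lung EC 9434 UMIs, and 5 barcodes occurred in both libraries. Because of this gap in depth, levels are CPM of the UMIs summed over the cells of a group, and shares of cells with a UMI are given after each cell was thinned to 5000 UMIs.

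Measured against a fold of 2, 3 of the 10 genes stood apart between the beds: GJA4 and JAG1 were higher in aorta ECs and DLL4 was higher in lung ECs. Over all 7809 genes at 10 CPM or more in ECs of at least 1 bed, 3.51% were at least 2-fold higher in the aorta and 1.32% at least 2-fold lower. Only 6 of the 10 members lie above that level, and GJA4 and DLL4 are not among them. The median ratio, aorta over lung, was 1.05 over the 10 genes and 1.04 over all genes at that level.

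**Figure D1:**
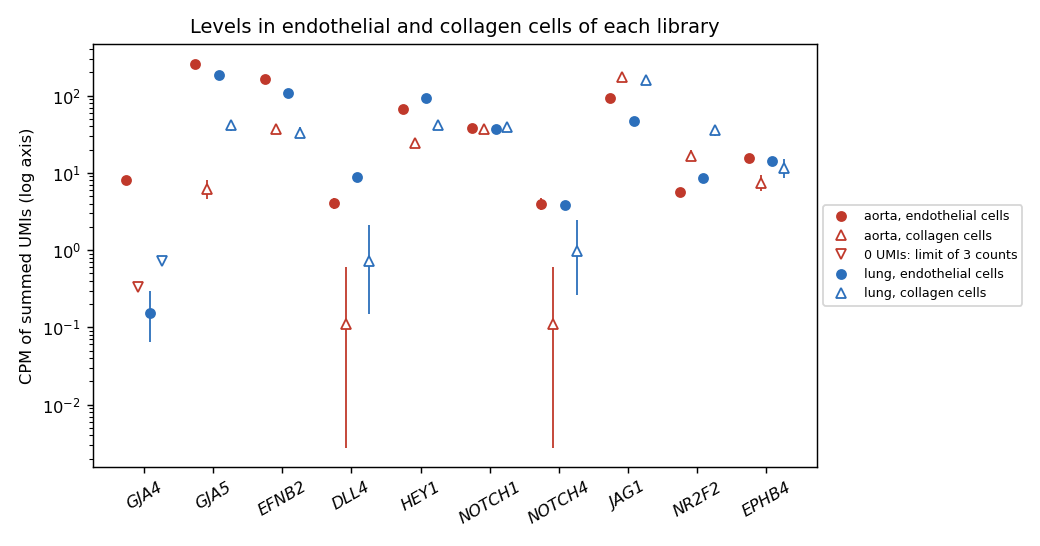
Level of each of the 10 genes, as CPM of summed UMIs on a log axis, in endothelial cells (filled circles) and collagen cells (open triangles) of the aorta (red) and lung (blue) libraries, with exact Poisson 95% intervals and triangles pointing down at the limit of 3 counts where no UMI was found. GJA4 is at 8.19 CPM in aorta and 0.152 CPM in lung endothelial cells, while JAG1 and NR2F2 are higher in collagen cells of both libraries.

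GJA4, the connexin 37 gene (ENSSSCG00000039983, chr6:91045430-91048161, plus strand, Sscrofa11.1), gave the widest gap. It had 294 UMIs in aorta ECs, or 8.19 CPM (7.28 to 9.18), and 8 UMIs in the much larger pool of lung ECs, or 0.152 CPM. The ratio was 53.9 (27.0 to 126), and 13.8 among the 170 aorta and 4097 lung ECs without a collagen UMI. After thinning, 23 of 663 aorta ECs (3.47%) and 3 of 4953 lung ECs (0.0606%) held a GJA4 UMI, and before thinning 77 of 704 (10.9%) and 6 of 5305 (0.113%). A single aorta EC carried 78 of the 294 UMIs (26.5%), and without it the aorta level was 6.03 CPM and the ratio 39.7 (19.8 to 93.2). No GJA4 UMI was found in collagen cells of either bed, which puts aorta ECs at least 24.9-fold higher than aorta collagen cells, taking 3 counts over the group as the limit.

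GJA5, the connexin 40 gene (ENSSSCG00000006696, chr4:99854129-99871288, plus strand), was present in ECs of both beds, at 258 CPM in the aorta and 185 CPM in the lung, a ratio of 1.40 (1.36 to 1.44). After thinning, 52.6% of aorta ECs and 51.2% of lung ECs held a UMI, against 2.60% and 8.0% of collagen cells. Among ECs with over 20000 UMIs, of which there were 595 in the aorta and 109 in the lung, the levels were 257 and 247 CPM and the ratio was 1.04 (0.958 to 1.13). In that comparison 4.66% of all genes at 10 CPM or more were 2-fold higher in the aorta and 1.69% 2-fold lower. The deep cells were not matched, with a median of 56703 UMIs in the aorta and 21953 in the lung. By cell cycle phase they were 291 G1, 128 S and 176 G2M cells in the aorta and 24, 21 and 64 in the lung. The part of depth and phase in the ratio was not tested. The 123 aorta ECs with fewer than 5000 detected genes gave 340.4 CPM, 1.85 times the lung level, where 7.26% of all genes were 2-fold higher and 4.89% 2-fold lower. The 2 arterial connexins thus differed between the beds to unequal extents. GJA5 in collagen cells lay at 6.15 CPM in the aorta and 41.3 CPM in the lung, making ECs 42.04-fold (32.3 to 55.7) and 4.48-fold (3.85 to 5.24) higher. One lung collagen cell held 68 of that group's 171 GJA5 UMIs, and the level was 25.2 CPM without it.

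The 250 bases before the RefSeq start of GJA4 and GJA5 are printed because these are the connexin genes that differed so unequally between the beds. Capitals mark TGGGAA, the core bound by RBPJ, or TTCCCA where it lies on the other strand.
GJA4, chr6:91045180-91045429, plus strand: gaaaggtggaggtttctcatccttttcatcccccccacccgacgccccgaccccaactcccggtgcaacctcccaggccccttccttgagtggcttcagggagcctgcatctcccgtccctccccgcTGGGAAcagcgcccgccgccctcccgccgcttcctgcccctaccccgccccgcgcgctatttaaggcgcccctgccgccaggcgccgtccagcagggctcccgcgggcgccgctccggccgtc
GJA5, chr4:99853879-99854128, plus strand: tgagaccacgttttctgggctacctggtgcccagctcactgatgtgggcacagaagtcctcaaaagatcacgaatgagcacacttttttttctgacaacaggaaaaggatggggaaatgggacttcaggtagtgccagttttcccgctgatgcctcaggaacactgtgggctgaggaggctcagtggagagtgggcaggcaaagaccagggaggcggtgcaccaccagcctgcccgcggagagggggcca
The GJA4 window held 1 match, beginning at position -123 from the gene start. The GJA5 window held 0. Both strands were searched for this motif alone. Of 20667 windows of this length before the starts of pig genes, 24.6% held a match, so a match is common and says nothing of binding.

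EFNB2, the gene of the arterial ligand ephrin-B2 (ENSSSCG00000009535, chr11:74188337-74232768, minus strand), was 166 CPM in aorta ECs and 107 CPM in lung ECs, a ratio of 1.55 (1.49 to 1.61). The direction was the same among cells over 20000 UMIs, with 165 against 129.7 CPM and a ratio of 1.27. Aorta ECs exceeded aorta collagen cells 4.44-fold, and lung ECs exceeded lung collagen cells 3.22-fold.

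EPHB4, the gene of the venous receptor for ephrin-B2 (ENSSSCG00000007675, chr3:8671052-8689778, minus strand), was 15.4 CPM in aorta ECs and 14.4 CPM in lung ECs. The ratio of 1.06 had an interval of 0.952 to 1.19, so no difference between the beds was detectable. Over collagen cells, ECs were 2.06-fold higher in the aorta and 1.25-fold (0.931 to 1.71) higher in the lung, the latter within counting error. The arterial ligand of this pair was thus the higher in aorta ECs and the venous receptor was not detectably different.

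DLL4, the Notch ligand gene of arterial and sprouting ECs (ENSSSCG00000004755, chr1:130376720-130386411, minus strand), was lower in the aorta. It gave 4.07 CPM from 146 UMIs in aorta ECs and 8.79 CPM from 463 UMIs in lung ECs, a ratio of 0.463 (0.382 to 0.559). In cells over 20000 UMIs the levels were 4.14 and 10.1 CPM, and after thinning 1.06% of aorta ECs and 4.42% of lung ECs held a UMI. DLL4 was scarce in collagen cells, with 1 UMI in aorta collagen cells (37.1-fold lower than in ECs, 6.55 to 1474) and 3 UMIs in lung collagen cells (12.1-fold, 4.13 to 59.1).

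JAG1, a Notch ligand gene used by ECs and by smooth muscle alike (ENSSSCG00000007067, chr17:19591248-19629659, minus strand), was 94.7 CPM in aorta ECs and 46.5 CPM in lung ECs, a ratio of 2.04 (1.93 to 2.14). This sits at the 2-fold limit: with other scalings, cell limits or depths the ratio ran from 1.41 to 2.77. The lowest value came from ECs without any collagen UMI, 170 in the aorta and 4097 in the lung. Unlike DLL4, JAG1 was higher in collagen cells, at 173 CPM in the aorta and 160.5 CPM in the lung, so that ECs lay 1.83-fold and 3.45-fold below them. The summed fibroblast markers of ECs were also higher in the aorta (191 against 31.0 CPM), and their part in the JAG1 ratio was not tested, since the ECs without a collagen UMI are also fewer. The ratio of DLL4 in the same collagen-free ECs was 0.320, so the 2 ligand genes had opposite directions between the beds there too.

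NOTCH1 (ENSSSCG00000038509, on an unplaced scaffold of the assembly), the main Notch receptor of arterial ECs, was 38.1 CPM in aorta ECs and 37.1 CPM in lung ECs, with a ratio of 1.03 (0.957 to 1.10). It did not separate ECs from collagen cells, with ratios of 1.03 in the aorta and 0.944 in the lung. NOTCH4 (ENSSSCG00000001440, chr7:24231293-24256281, minus strand), a receptor gene known as restricted to endothelium, was 3.98 CPM in the aorta and 3.82 CPM in the lung, a ratio of 1.04 (0.837 to 1.30). It had 1 UMI in aorta collagen cells and 4 in lung collagen cells, with ECs 36.3-fold (6.41 to 1444) and 3.95-fold (1.52 to 14.6) higher. Neither receptor differed detectably between the beds over all ECs, although the interval for NOTCH4 in cells over 20000 UMIs was 0.351 to 1.00 around a ratio of 0.576, and NOTCH1 in aorta ECs with fewer than 5000 genes was 1.55 times the lung level (1.20 to 1.96).

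HEY1, a repressor switched on by Notch (ENSSSCG00000006159, chr4:56859640-56863807, plus strand), was lower in the aorta, at 68.2 CPM against 93.2 CPM in the lung. The ratio was 0.732 (0.697 to 0.768), short of 2-fold, and 0.617 in cells over 20000 UMIs. After thinning 25.3% of aorta ECs and 33.6% of lung ECs held a UMI. HEY1 and DLL4 thus had the same direction, and EFNB2, GJA4 and JAG1 the opposite one. ECs were above collagen cells in both beds, 2.82-fold in the aorta and 2.21-fold in the lung.

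NR2F2, the venous regulator gene (ENSSSCG00000002254, chr7:83076119-83090250, minus strand), was 5.60 CPM in aorta ECs and 8.56 CPM in lung ECs, a ratio of 0.654 (0.551 to 0.774). Its level was higher in collagen cells, with 16.8 CPM in the aorta and 35.5 CPM in the lung, so that ECs lay 3.00-fold and 4.14-fold below them. After thinning, 3.02% of aorta ECs and 3.88% of lung ECs held a UMI, against 6.49% and 16.6% of collagen cells.

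Across the 10 genes and both beds, 12 of 20 comparisons with collagen cells had ECs at least 2-fold higher. Of the members at 10 CPM or more, which were 7 in each bed, this held for 4 (aorta) and 3 (lung). Over all genes at that level the share was 13.3% of 8113 in the aorta and 9.45% of 7965 in the lung, and ECs were at least 2-fold lower for 7.74% and 6.80%. The genes outside that pattern were JAG1 and NR2F2, lower in ECs, NOTCH1, near 1 in both beds, lung EPHB4, and lung GJA4, where both groups lay at too few counts for a ratio.

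**Figure D2:**
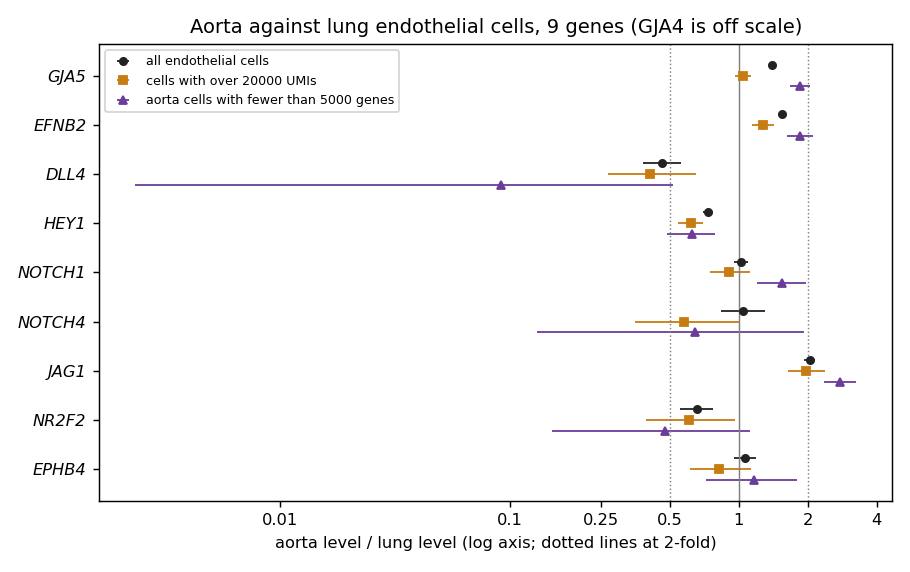
Ratio of the aorta to the lung level in endothelial cells (log axis, exact 95% intervals) for 9 genes, over all endothelial cells, over those with over 20000 UMIs in both libraries, and with the aorta limited to cells with fewer than 5000 genes. DLL4, HEY1 and NR2F2 lie below 1 and JAG1 and EFNB2 above 1 in every selection, GJA5 runs from 1.04 to 1.85, and the ratio of GJA4 (53.9) is beyond the axis.

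By cell cycle phase, scored from S and G2M genes within each library, the aorta held 348 G1, 153 S and 203 G2M ECs and the lung 2223, 1209 and 1873. In the aorta 4 of 20 ratios to G1 (10 genes, S and G2M) were 1.5-fold or more from 1: GJA4 was lower in S and in G2M, GJA5 was lower in G2M, and DLL4 was higher in G2M. Of the 7 members at 10 CPM or more in the aorta, 1 passed in S and 2 in G2M, all of them lower than in G1. For all aorta genes at that level, 16.6% were 1.5-fold higher and 7.13% 1.5-fold lower in S, and 16.0% and 7.37% in G2M. In the lung 2 of 20 ratios passed, both of GJA4 and resting on 8 UMIs, and of the 6 members at 10 CPM or more 0 passed. Over all lung genes at that level, 9.26% were higher and 2.29% lower in S, and 8.54% and 2.46% in G2M. The phase is a call cut from scores, and 11.4% of aorta and 18.2% of lung ECs lay within 0.05 of a cut.

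GJA4 was 14.2 CPM in G1, 3.60 CPM in S and 2.43 CPM in G2M aorta ECs. S lay 3.95-fold (2.68 to 6.02) and G2M 5.84-fold (3.91 to 9.05) below G1. The cell with 78 UMIs was in G1, and without it the ratios to G1 were 0.375 (0.243 to 0.560) for S and 0.254 (0.162 to 0.383) for G2M. In S, 1 cell held 16 of the 29 UMIs (1.63 CPM without it), and in G2M 1 cell held 8 of the 27 (1.72 CPM without it). G1 remained the phase with the highest level.

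GJA5 was highest in G1 in both beds. In the aorta it was 316 CPM in G1, 233 in S and 190.1 in G2M, and in the lung 219.6, 163 and 163 CPM. In the aorta the share of thinned cells with a GJA5 UMI did not follow these levels, at 52.0% in G1, 57.1% in S and 50.5% in G2M. In the lung the shares were 54.8%, 47.3% and 49.7%.

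HEY1 was lowest in S in both beds: 78.9, 52.9 and 63.2 CPM in aorta G1, S and G2M, and 107, 72.6 and 92.2 CPM in the lung. The ratios of S to G1 were 0.671 and 0.679. The shares of thinned cells with a UMI were 37.9%, 28.2% and 32.1% in the lung, and 25.1%, 22.9% and 27.6% in the aorta, where they did not follow the levels. These ratios lay just inside the 1.5-fold limit in both libraries.

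NOTCH1 was higher in cycling aorta ECs, at 31.6 CPM in G1, 45.3 in S and 42.6 in G2M, and near level in the lung, at 36.4, 34.9 and 39.3 CPM. DLL4 in the aorta was 3.46, 3.60 and 5.32 CPM, but 19 of its 59 G2M UMIs were in 1 cell and the G2M level was 3.64 CPM without it. In the lung DLL4 was 8.49, 8.08 and 9.54 CPM. EFNB2 in G2M lay near its G1 level, with ratios of 0.991 in the aorta and 1.04 in the lung, and NOTCH4 ran from 0.872 to 0.965 of its G1 level over both beds and phases. EPHB4 was 1.30 times G1 (1.05 to 1.61) in aorta S cells and 0.965 times G1 (0.797 to 1.16) in lung S cells. The aorta ratio was 0.909 after thinning and 1.10 (0.824 to 1.49) without the cluster led by SLPI, described below. JAG1 was 102, 96.5 and 82.3 CPM in aorta G1, S and G2M and 50.6, 40.3 and 46.3 CPM in the lung. NR2F2 had ratios to G1 in S and G2M of 1.40 (0.982 to 1.99) and 1.13 (0.798 to 1.59) in the aorta, both within counting error, and of 1.31 (1.022 to 1.68) and 1.26 (1.01 to 1.57) in the lung.

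**Figure D3:**
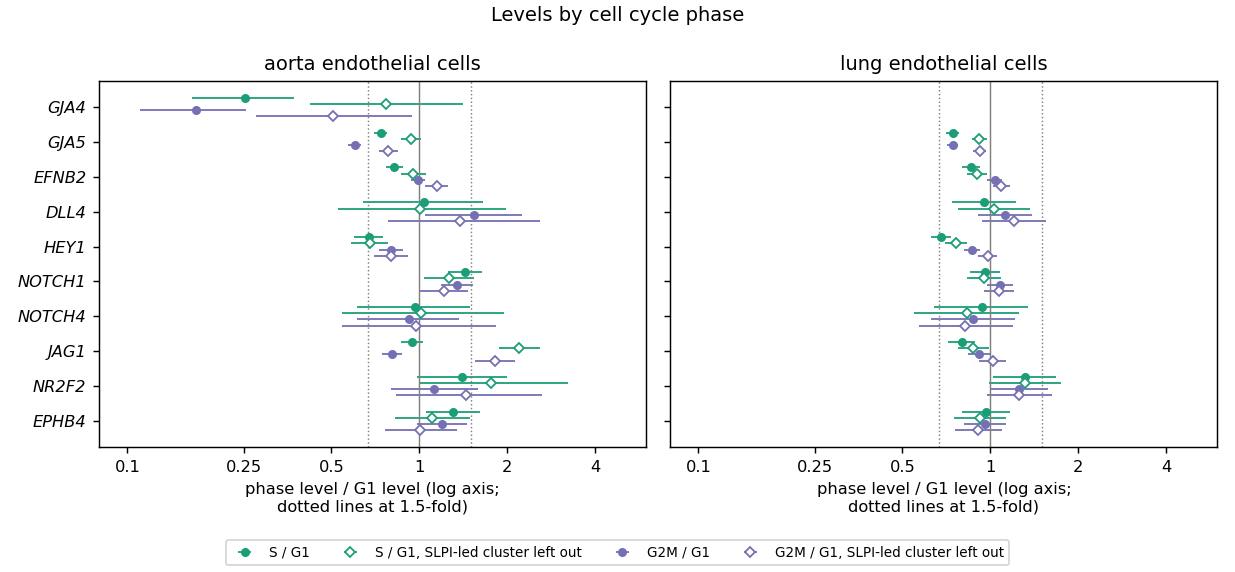
Ratio of the S (green) and G2M (purple) level to the G1 level for each gene, on a log axis with exact 95% intervals, over all endothelial cells (filled circles) and with the cluster led by SLPI left out (open diamonds), for aorta (left) and lung (right); lung GJA4, with 8 UMIs, is not drawn. HEY1 in S lies near 0.67 in both libraries, and leaving out the cluster moves aorta JAG1 in S from 0.946 to 2.20.

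Part of the G1 level came from 1 cluster per library. Cells were clustered without the 10 genes, and 241 aorta ECs and 759 lung ECs fell in clusters led by CCL5, SLPI and CFD in the aorta and by SLPI, CFD and CRYAB in the lung. Of their cells, 97.1% and 98.6% were called G1. SLPI encodes a secreted protease inhibitor and CFD complement factor D, and the aorta cluster also carried the interferon-induced genes RSAD2 and IFIT1.

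Compared with the other G1 ECs of the same library, the SLPI-led cells of the aorta differed in GJA4 (16.9 against 4.85 CPM, ratio 3.49, 2.22 to 5.75), GJA5 (349 against 237 CPM, 1.47) and JAG1 (120.5 against 44.8 CPM, 2.69). A single cell held 78 of the cluster's 217 GJA4 UMIs (10.9 CPM without it), and another 10 of the 21 in the other G1 cells (2.57 CPM without it). GJA4 and JAG1 passed 1.5-fold, and GJA5 was just short of it. The other G1 ECs of the aorta were mostly cells of a cluster led by FOLR1 and IL6. The ratio for EFNB2 was 1.21 and that for HEY1 1.01. In the lung, GJA5 passed 1.5-fold (288 against 178 CPM, 1.62), and the ratios were 1.36 for HEY1 (128 against 94.1 CPM), 1.31 for JAG1 (59.8 against 45.5 CPM) and 1.14 for EFNB2. Over all genes, 8.73% (aorta) and 3.87% (lung) had a level 1.5-fold higher in these clusters, and 7.75% and 4.51% a level 1.5-fold lower. No member with at least 10 UMIs in both libraries passed 1.5-fold in both.

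Leaving these clusters out, the aorta ratios of S and G2M to G1 became 0.767 (0.423 to 1.41) and 0.508 (0.277 to 0.946) for GJA4 and 0.937 and 0.785 for GJA5, and the lung ratios for GJA5 became 0.916 and 0.918. Of the 29 GJA4 UMIs in these aorta S cells, 16 were in 1 cell, and the S level was 1.69 CPM without it. In G1, 1 cell held 10 of the 21 UMIs, and the level fell from 4.85 to 2.57 CPM without it. In G2M, 1 cell held 8 of the 27 UMIs, and the level fell from 2.47 to 1.74 CPM without it. Both GJA4 ratios thus rest in large part on single cells. HEY1 kept its aorta ratios, at 0.677 and 0.800, and in the lung was 0.765 and 0.980. JAG1 in the aorta went from 0.946 and 0.807 to 2.20 (1.88 to 2.59) and 1.81 (1.55 to 2.13), since the 114 remaining G1 cells had 44.8 CPM. The JAG1 gap between the beds was thus uneven in this selection. G1 cells were near the lung level of 45.5 CPM, whereas aorta cells were above lung cells in S (98.7 against 39.7 CPM) and in G2M (81.3 against 46.3 CPM). Without the clusters 12.7% of aorta genes were 1.5-fold higher and 2.91% lower in S, and 12.2% and 2.72% in G2M. For the lung these shares were 7.77% and 1.15% in S, and 7.26% and 0.871% in G2M.

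The other clusters spread the genes further. Among aorta clusters with at least 50 ECs, JAG1 was lowest, at 43.6 CPM, in the 70 ECs led by FOLR1 and IL6, which had 257 CPM of GJA5, close to the level of all aorta ECs. GJA5 was lowest among them, at 159.9 CPM, in the 172 ECs led by histone genes and TOP2A, and GJA4 was 2.39 CPM there. Over these clusters GJA5 spanned 2.18-fold in the aorta and 2.68-fold in the lung, HEY1 1.41-fold and 2.88-fold, and JAG1 2.76-fold and 2.05-fold. A smaller aorta cluster, with 33 ECs and 41 other cells and a median of 2855 UMIs, lay lower still, with GJA5 at 56.7 CPM from 7 UMIs (22.8 to 117) and JAG1 at 16.2 CPM from 2 UMIs (1.96 to 58.5). Its ECs had a median of 0.334% mitochondrial UMIs, against 6.22% over all aorta ECs. Their summed endothelial markers were 1402 CPM, against 2540 CPM in the other aorta ECs. The part of cell quality in these low levels was not tested.

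In the lung, 76 cells counted as ECs fell in a cluster led by CTSS, CTSH, FABP5 and GRN, genes known from macrophages, together with 14 cells that were not ECs. Their summed immune markers were 199 CPM, with all 6 detected, against 7.12 CPM in the other lung ECs, and their endothelial markers 1843 against 2653 CPM. Among lung clusters with at least 50 ECs they had the lowest HEY1 (44.4 CPM, 31.4 to 61.0). Their GJA5 level of 108 CPM (86.7 to 132) was close to the 109 CPM (101 to 117) of the 572 ECs led by H2AC20 and HIST1H1D. NR2F2 was 22.2 CPM (13.4 to 34.7) from 19 UMIs, too few to order. A single cell held 5 of these, and the NR2F2 level was 16.6 CPM without that cell. The 76 cells also held 5 of the 8 lung GJA4 UMIs. The part of the immune transcripts in these levels was not tested. The 275 ECs led by CA14 and APH1A, with a median of 3017 UMIs, had the highest lung levels of EFNB2 (179.8 CPM, 154 to 209) and NOTCH1 (63.1 CPM, 48.1 to 81.4). DLL4 was 12.8 CPM there from 12 UMIs (6.64 to 22.4), EPHB4 22.5 CPM from 21 UMIs (13.9 to 34.3) and NR2F2 19.3 CPM from 18 UMIs, too few to order them against the other clusters. The part of the low depth of these cells was not tested. The 207 ECs led by CXCL10 and RSAD2 had HEY1 at 116 CPM and NR2F2 at 4.55 CPM from 9 UMIs (2.08 to 8.64), also too few to order.

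**Figure D4:**
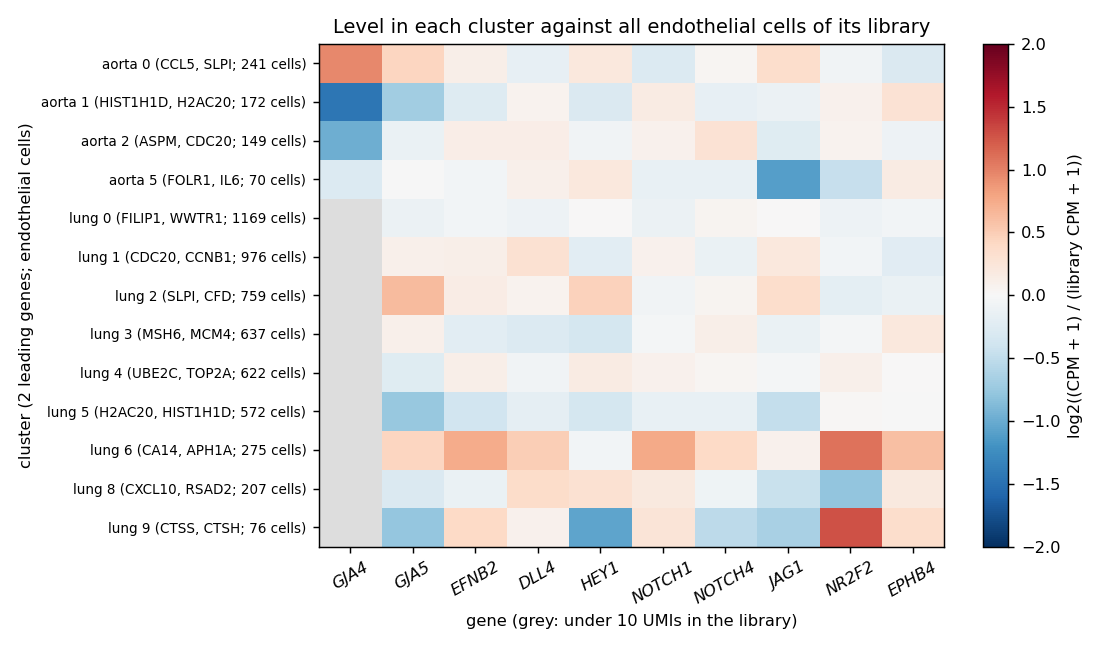
Level of each gene in each cluster with at least 50 endothelial cells, as log2((CPM + 1)/(library CPM + 1)) against all endothelial cells of the same library (red above, blue below; grey, under 10 UMIs in the library). GJA4 and GJA5 are high in aorta cluster 0 and GJA5 in lung cluster 2, both led by SLPI, and NR2F2 is high in lung clusters 6 and 9.

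Another small aorta cluster stood out after its values were seen. Its 35 ECs, with a median of 8898 UMIs and led by ND4L, CD86 and AREG, had 547 CPM of GJA5 (487 to 612), 2.15 times the other aorta ECs, with UMIs in 26 of the 35 cells. A single cell, with 80957 of the cluster's 552495 UMIs, held 139 of its 302 GJA5 UMIs. The GJA5 level and ratio of the cluster thus rest in large part on that cell. NOTCH1 was 88.7 CPM there (2.38 times), JAG1 181 CPM (1.94 times) and EFNB2 235 CPM (1.43 times), while GJA4 had 0 UMIs, which allows up to 6.68 CPM. GJA5 was itself among the leading genes of this cluster, although it was not used to form it.

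The deep aorta cells show how unequal single cells were. Over the 595 aorta ECs above 20000 UMIs, GJA5 ran from 11.8 CPM at the 10th percentile through a median of 140.1 to 540.5 at the 90th and 3770 in the highest cell, with 9.75% of cells at 0. EFNB2 was more even, with 53.3, 146 and 307 CPM at the same points and 1.18% of cells at 0. PECAM1, which was used to choose the cells, ran from 835 through 1298 to 1761 CPM.

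HEY1 and JAG1 had medians of 55.9 and 60.5 CPM, 90th percentiles of 146 and 207 CPM, and 11.09% and 11.4% of cells at 0. NOTCH1 had a median of 33.3 CPM with 16.3% at 0, and EPHB4 13.0 CPM with 46.1% at 0. GJA4, DLL4, NOTCH4 and NR2F2 were at 0 in 87.9%, 85.4%, 78.8% and 74.8% of these cells, and yet the highest cell for GJA4 had 966 CPM.

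After thinning, the variance of the GJA5 UMI count was 4.18 times its mean in aorta ECs and 1.84 times in lung ECs, against 1.53 and 1.17 times for EFNB2. The tenth of ECs with the most GJA5 held 49.8% of its UMIs in the aorta and 41.9% in the lung. Although the shares of cells with at least 1 UMI were alike, 28.4% of aorta ECs and 21.5% of lung ECs held at least 2.

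**Figure D5:**
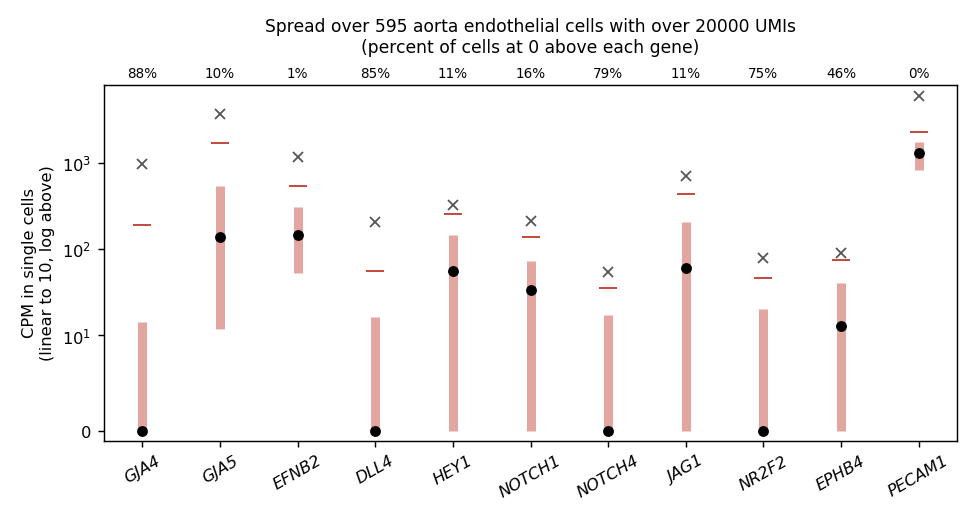
CPM in single cells for 595 aorta endothelial cells with over 20000 UMIs (axis linear to 10 and logarithmic above): bars run from the 10th to the 90th percentile, points are medians, dashes the 99th percentile and crosses the highest cell, with the percent of cells at 0 above. GJA5 spans 11.8 to 540.5 CPM within its bar, EFNB2 53.3 to 307 CPM.

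Levels of the members in cells with a UMI of another are a description of these libraries. In thinned aorta ECs, the 23 cells with a GJA4 UMI had GJA5 at 739 CPM against 250.3 CPM in those without (ratio 2.95, 2.33 to 3.70) and EFNB2 at 452 against 159.7 CPM (2.83, 2.09 to 3.77), while PECAM1 was 1.10 times as high (0.936 to 1.28). Of the 23 cells 13 held a GJA5 UMI, where 12.1 would follow from its share over all these ECs, and 19 an EFNB2 UMI, where 11.7 would. The GJA5 difference thus lay in UMIs per cell more than in cells with a UMI. Of these cells 82.6% were in G1, against 48.8% of the rest. Aorta ECs with an EFNB2 UMI had GJA5 at 329 CPM against 204 CPM in those without. The venous gene NR2F2 was also higher in the 23 cells with a GJA4 UMI, at 26.1 against 5.31 CPM. That ratio of 4.91 rests on 3 UMIs and is within counting error. The 20 aorta ECs with an NR2F2 UMI had 5.74 times the GJA4 (1.73 to 15.1) of those without. This rests on 5 GJA4 UMIs in 3 cells. EPHB4, the venous receptor gene, had 0 UMIs in the 23 cells, also within counting error.

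In the lung the differences were smaller. ECs with a HEY1 UMI had 1.495 times the DLL4 (1.14 to 1.96) and 1.19 times the GJA5 of those without, and ECs with a GJA5 UMI had 1.26 times the EFNB2, 1.18 times the HEY1 and 1.21 times the JAG1. PECAM1, which was used to choose the cells, was 1.05 times as high in each of these kinds of cell as in the rest.

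A list of 84 further genes of the same families and programmes was read in the same way; 83 were named in the counts, and 33 reached 20 CPM in ECs of at least 1 bed. Of these 33, 4 were at least 2-fold higher in aorta ECs and 0 at least 2-fold lower. Over all 5915 genes at 20 CPM or more, the shares were 3.08% and 1.30%. The listed genes were GJA1, the gene of the widespread connexin 43 (334 against 59.3 CPM, 5.63-fold), the Notch receptor gene NOTCH2 (42.04 against 17.9 CPM, 2.35-fold), the elastic fibre gene FBLN5 of the arterial list (273 against 114 CPM, 2.39-fold), and SELP, the adhesion molecule gene of the venous list (445 against 127 CPM, 3.50-fold). An arterial and a venous gene were thus both higher in the aorta.

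By family, GJA1 had the same direction as GJA4, and GJC1, another connexin gene, was 29.2 CPM in the aorta and 27.4 CPM in the lung. GJC1 ran opposite to GJA5 by phase, at 12.2, 51.3 and 38.9 CPM in aorta G1, S and G2M and 15.2, 40.2 and 31.8 CPM in the lung. The Notch ligand gene JAG2 was 25.5 and 33.3 CPM, the HEY1 relative HEY2 32.3 and 19.4 CPM, and the Notch target HES1 61.5 and 73.0 CPM. RBPJ, the DNA-binding partner of the receptors, was 74.5 CPM in the aorta and 86.4 CPM in the lung. ACKR1 and APLNR of the venous list had no UMI in ECs of either library.

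For each gene, the genes with the most similar level over 13 clusters (4 of the aorta and 9 of the lung, each library centred on its own mean) were sought among 7147 genes, by Pearson's r of log2(CPM + 1). The clusters share their library, differ in depth, and so few points among so many genes give high values readily, so these are descriptions. GJA5 was most like MFSD10 (0.926), LIMS2 (0.906) and TAX1BP3 (0.903), GJA4 most like CYP1B1 (0.960), SNX3 (0.952) and GGCX (0.942), and HEY1 most like PTPRB (0.955), JAM2 (0.937) and PFKFB3 (0.936). PTPRB and JAM2 encode proteins of endothelial junctions. EFNB2 was most like an unnamed gene (0.961), NOL4L (0.961) and AFF4 (0.960), and EPHB4 most like FASN (0.907), NCOA2 (0.881) and ZNF16 (0.869).

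DLL4 was nearest to CCNJ (0.925), SYS1-DBNDD2 (0.859) and CLPTM1L (0.839), and JAG1 to CD86 (0.847), ZADH2 (0.823) and HMCN1 (0.807). NOTCH1 was nearest to TARBP2 (0.939), TRAPPC10 (0.936) and POLDIP3 (0.916), NOTCH4 to an unnamed gene (0.917), CARD10 (0.914) and ST3GAL1 (0.894), and NR2F2 to ALKBH5 (0.965), OSBPL8 (0.964) and FAM208A (0.958).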

How the data were processed

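Single-cell RNA-seq (10x 3′ chemistry) had been run on cultured pig aorta and lung cells, 1 library each. The authors deposited UMI counts per gene and barcode, made with Cell Ranger 3.0.2 on Sscrofa11.1. The aorta library held 1185 barcodes and 46080859 UMIs, the lung library 5946 barcodes and 57213236 UMIs. Cells with more than 200 genes and under 30% UMIs of 12 mitochondrial genes were kept. The upper limit of 5000 genes in the study's methods was applied only as an alternative, because it leaves 123 of 704 aorta ECs, and fewer aorta cells in all than the study states. No doublet caller was run and no doublet was left out, so cells of very high UMI number may be doublets.

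ECs had more PECAM1 UMIs than COL1A1 and COL1A2 UMIs together, and collagen cells the reverse. UMIs were summed per group and given as CPM. Ratios used the summed counts, with 3 counts as the limit where a group had no UMI. No test across replicates is possible with 1 library per bed, so folds of 2 (beds, cell types) and 1.5 (phases, clusters) were fixed as the sizes to name. Counts over all genes took those at 10 CPM or more in 1 of the groups compared. Phases came from Seurat 5.3.0 (R 4.3.3), scored per library. Clusters were made per library from 2000 variable genes less the 10 genes and PECAM1, COL1A1 and COL1A2. The text names all 10 genes, the listed genes at 20 CPM or more that were 2-fold apart or of a member's family, and the 3 genes most alike in level. Cells thinned to 5000 UMIs left out 41 aorta and 352 lung ECs. Ratios were also computed on simulated counts, drawn from the same Poisson model that the intervals assume. That simulation held no spread between cells and so could not test the intervals against it. Other steps used Python 3.11.15, numpy 2.4.6, pandas 2.3.3 and scipy 1.17.1. Gene positions and promoter bases are from RefSeq on Sscrofa11.1, where NOTCH1 lies on an unplaced scaffold. Reads that fall on a gene's near copies or its antisense strand could not be checked from the counts. The genes and lists were chosen with earlier results of these data known. The alternatives tried were other cell limits, other definitions of an EC, equal depth, other scalings and other phase calls. A further promoter sequence is not reported here.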

Additional observations from a re-analysis of the deposited data

Results flagged for a closer look

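JAG1 drew attention because its ratio of S to G1 had opposite directions in the beds once the SLPI-led clusters were left out: 2.20 (1.88 to 2.59) in aorta ECs and 0.873 (0.773 to 0.986) in lung ECs. This difference between the libraries was not tested. Over all ECs the ratios were 0.946 and 0.797. The aorta value rests on 114 G1 cells outside the cluster, and that selection was chosen after seeing the data. Most of those G1 cells belong to the cluster led by FOLR1 and IL6, where JAG1 was 43.6 CPM, so phase and cluster cannot be told apart there.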

How the results depend on the processing

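No paired analysis was possible because each bed had 1 library and no test was made. The count of aorta ratios by phase at 1.5-fold or more, 4 of 20 as reported, was 12 with fewer than 5000 genes per cell, 9 in ECs with PECAM1 and no collagen UMI, and 7 in cells thinned to 5000 UMIs. These selections hold fewer aorta cells or UMIs. The other counts ran from 2 to 4 for the beds (3 as reported), from 2 to 3 for the lung phases (2) and from 9 to 12 for ECs against collagen cells (12). Of 772 single values under alternatives, 618 moved by less than their counting interval, 152 moved by more, and 2 that had passed their fold changed side of 1. These were NOTCH4 in aorta ECs over collagen cells, 0.917 in cells with fewer than 5000 genes, and lung GJA4 in S over G1, 0.896 after thinning, both on a few UMIs. A further 44 values that had not passed their fold changed side of 1, of which 22 moved by more than their counting interval. Among them was aorta JAG1 in G2M over G1, from 0.807 (0.744 to 0.875) to 1.81 (1.55 to 2.13) without the SLPI-led cluster. GJA4 in the aorta over the lung ran from 13.8 in ECs without collagen UMIs to 61.6 after thinning, and DLL4 from 0.0922 in aorta ECs with fewer than 5000 genes, where 1 UMI remained, to 0.488 with no limit on cells. Without the 5% deepest cells, GJA5 in ECs was 91.6 times the level in aorta collagen cells and 14.2 times that in lung collagen cells. Lung GJA4, with 8 UMIs, is too low for any order by phase. The selections without SLPI-led clusters, over 20000 UMIs and without single cells were added after seeing the data.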

Other observations

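Among the listed genes outside the 10, GJA1 and FBLN5 were highest in G1 ECs of both beds. GJA1 was 381, 313 and 277 CPM in aorta G1, S and G2M and 68.5, 60.9 and 48.7 CPM in the lung. FBLN5, which encodes an elastic fibre protein, was 370.2, 197 and 181 CPM in the aorta and 143, 96.0 and 96.0 CPM in the lung. The transcription factor genes SOX18 (103 against 91.5 CPM) and SOX17 (10.5 against 7.27 CPM) and the kinase gene BMX (169 against 165 CPM) lay within 2-fold between aorta and lung ECs, as did the venous marker gene EMCN (47.0 against 67.6 CPM). The chemokine gene CXCL12 was 0.446 CPM in aorta and 8.83 CPM in lung ECs, and its receptor gene CXCR4 5.29 and 19.4 CPM, both below the 20 CPM asked of the list.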
